A study of Drosophila melanogaster with 4 samples.

Results

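This account concerns 1643 regions of H3K79me1 enrichment that appeared when 2 ChIP replicates were combined and that touched no region called in either replicate alone. H3K79me1, the first methylation step on a lysine in the globular core of histone H3, was mapped by ChIP-seq, the sequencing of DNA recovered with an antibody from fixed chromatin, in head nuclei of Drosophila melanogaster. The flies were wild-type adults of the Oregon-R strain, labelled as a mixed adult stage and raised in population cages, and their heads were collected by sieving, so each library pools many animals and the mixed cell types of the head. There were 2 ChIP libraries, made with an antibody from lot 1 of the supplier, and 2 input libraries, all from the same strain and tissue, and nothing in the labels tells if the replicates are independent fly collections or technical repeats. The authors deposited 1 list of enriched regions per ChIP replicate and 1 list for both combined, with coordinates on FlyBase release 5, and library depth is unknown.

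Methylation at this position is written by the Dot1 enzyme, encoded in flies by grappa, and Dot1 adds methyl groups one at a time, so the mono-, di- and trimethylated forms can differ in where they lie. Unlike the lysines of the histone tail, this residue sits on the face of the nucleosome disc. The mark is generally found over transcribed chromatin. In a ChIP-seq region list, a domain is reported where the ChIP signal passes a threshold over the input, and combining libraries can bring further stretches past that threshold. The threshold applied to each list is not given in the sources used here. Genes and sequences at the regions were not analysed here, because the gene table used for names is on a later release than the region lists.

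Members were taken from the combined list on the autosomal arms 2L, 3L and 3R, and the other sequences were not part of the rule. They were chosen by their combined-list calls and by the replicate calls: they had to be wider than 1.3 kb and narrower than 5 kb and to share no base with either replicate list. No region of either replicate list was narrower than this lower limit. The width is that of the combined list, and the width a member would have in a single replicate is unknown. Of the 5293 combined regions of that width on these arms, 1643 met the rule (31.0%). Of the 8216 combined regions of any width on the arms, 3102 (37.8%) had no base in a replicate list, and 1458 of those were too narrow while 1 was too wide. The combined list held 12942 enriched regions on all sequences. Because position, width and absence from the replicate lists chose the members, all counts, widths, scores and distances below are descriptions without a test. Each member has 1 value, from the combined list, so there is no replicate spread. Some of the shares are given with 95% Wilson intervals. These cover counting error only and take each region as an independent draw.

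The members were many, narrow and short in total length. They made up 20.0% of the combined regions of the 3 arms and 10.9% of the combined length, or 2.99 Mb, which is 3.96% of the arms. Their median width was 1651 bp, with an interquartile range of 1449 to 1942 bp, and 1293 of them (78.7%) were narrower than 2000 bp. Only 73 were 3000 bp or wider and 13 were 4000 bp or wider. The arms were alike in this respect, with 538 members on 2L, 519 on 3L and 586 on 3R and median widths of 1659, 1647 and 1649 bp. Relative to sequence outside every replicate region, there were 30.5 members per Mb on 2L, 28.9 on 3L and 29.2 on 3R.

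The share of regions absent from both replicate lists fell with width. A region counts as found when it shares 1 bp with a list, which a wider region does more easily, so the rule partly sets this direction. Members were 70.3% of the combined regions of 1.3 to 1.5 kb, 47.3% of those of 1.5 to 2 kb, 18.3% of those of 2 to 3 kb and 5.17% of those of 3 to 5 kb. Regions with a base in both replicate lists ran the other way, from 0.266% of the narrowest band, where there were only 2, to 66.8% of the widest. Regions found in a single replicate had their largest shares in the middle bands, 20.4% for replicate 1 and 27.0% for replicate 2.

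**Figure D1:**
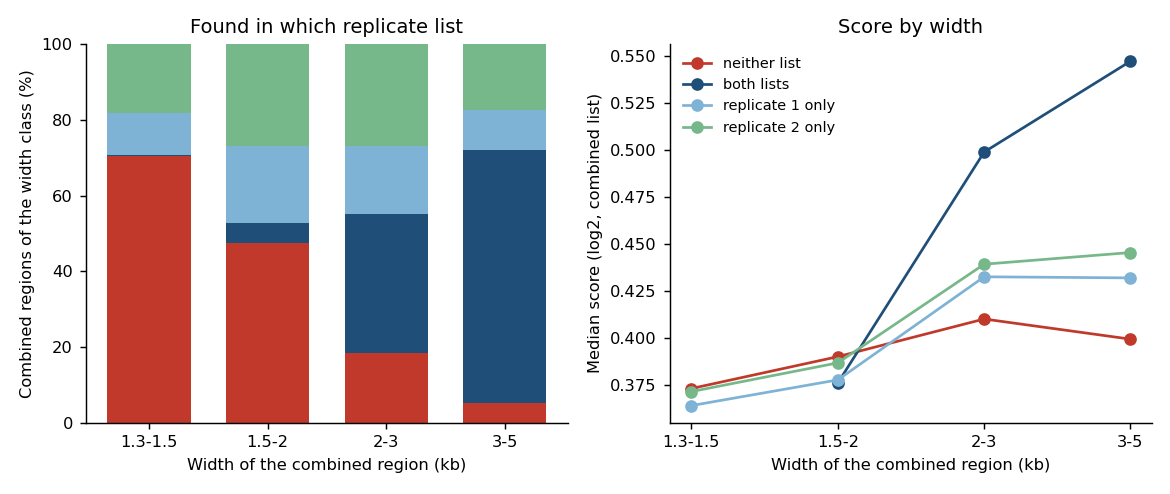
Left, the share of combined regions of 2L, 3L and 3R in each width class (kb) that had a base in neither, both or 1 of the replicate lists; right, the median score (log2, combined list) of each set, drawn where it held at least 20 regions. The share found in neither list falls from 70.3% to 5.17% from left to right, and at 1.5 to 2 kb the medians of the 4 sets lie between 0.38 and 0.39.

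The scores of the members were low. The authors' score, treated here as a log2 value that can be compared only within a list, had a median of 0.39 in the members, with an interquartile range of 0.35 to 0.43 and extremes of 0.09 and 0.81. The median member stood at percentile 26.0 of the combined regions of the 3 arms. Regions of the same width range had medians of 0.52 when in both lists, 0.41 when in replicate 1 only and 0.42 when in replicate 2 only. Their interquartile ranges were 0.46 to 0.60, 0.37 to 0.45 and 0.38 to 0.46 in that order. The gap between the medians differed between width bands. Among regions of 1.5 to 2 kb, the median was 0.39 for members, 0.38 for the 87 regions in both lists, 0.38 for replicate 1 only and 0.39 for replicate 2 only. From 2 to 3 kb the members stayed at 0.41 while regions in both lists stood at 0.50, and from 3 to 5 kb the values were 0.40 and 0.55. Within the members, Spearman's rho between width and score was 0.22 over 1643 regions, all from 1 list.

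To place the members, replicate 1 and replicate 2 regions that shared at least 1 bp were merged, and a merged stretch holding regions of both lists was called a replicated domain. The 3 arms held 3059 such domains over 14.7 Mb, 857 on 2L, 1029 on 3L and 1173 on 3R, covering 17.1%, 20.1% and 20.8% of the arms. Distance was the number of bases between a member and the nearest domain. A member within 5 kb was called a flank member and one beyond 20 kb an isolated member.

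Members lay both beside replicated domains and far from them, with no break between the 2 situations. Flank members numbered 636 of 1643 (38.7%, 36.4 to 41.1), isolated members 373 (22.7%, 20.7 to 24.8), and the remaining 634 (38.6%) lay between 5 and 20 kb away. The median distance was 7512 bp, with an interquartile range of 2626 to 18653 bp, and distances ran from 2 bp to 152 kb. The median was 33650 bp when only domains of at least 5000 bp counted. It was 3322 bp for the 2480 regions that met the rule without replicate 1 and 4248 bp for the 2867 without replicate 2. In those 2 settings every region of the other list served as a domain. Only 109 members (6.63%) were within 500 bp of a domain and 106 (6.45%) were more than 50 kb away. By arm, the flank share was 34.6% on 2L, 41.2% on 3L and 40.3% on 3R, and the isolated share 26.2%, 21.6% and 20.5%. The median distance was longest on 2L, at 8854 bp, against 6927 bp on 3L and 7146 bp on 3R. 2L also had the lowest domain density, 37.2 per Mb against 41.9 and 42.0.

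Regions of the same width range that a replicate had listed lay closer to another replicated domain. A region close to a domain shares a base with a list more easily, and a domain that a region overlapped was skipped. The rule thus partly sets these differences. They were also wider than the members (median 1651 bp), at 3231 bp in both lists, 2007 bp in replicate 1 only and 2053 bp in replicate 2 only. The flank share was 58.5% (56.1 to 60.9) for 1589 regions in both lists, 49.2% (45.8 to 52.6) for 837 regions in replicate 1 only and 43.9% (41.1 to 46.7) for 1224 regions in replicate 2 only, and the median distances were 3450, 5100 and 6271 bp. Members had the lowest flank share of these sets on each of the 3 arms. The isolated share was 11.0%, 16.1% and 19.4% in the same order, below the 22.7% of members. On 2L alone, regions in replicate 2 only had a slightly larger isolated share than members, 26.6% against 26.2%. Width made little difference among the members, since each of the 4 width bands had median distances of 6765 to 7688 bp and flank shares of 37.3% to 40.4%. At 1.5 to 2 kb the flank share was 39.0% for members, 56.3% in both lists, 45.0% in replicate 1 only and 44.1% in replicate 2 only. The isolated shares in this band were closer for single-list regions, at 21.7%, 12.6%, 20.4% and 19.1% in the same order.

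**Figure D2:**
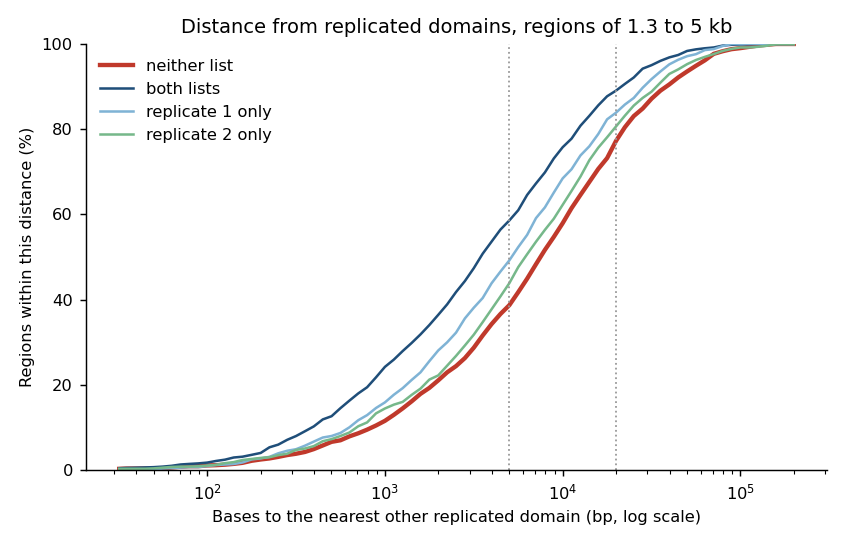
The share of combined regions of 1.3 to 5 kb (%) that lie within a given number of bases (log scale) of the nearest replicated domain with which they share no base, for regions in neither list (the members), both lists or 1 list; dotted lines mark 5 and 20 kb. At 5 kb the curves stand at 38.7% for neither, 58.5% for both, 49.2% for replicate 1 only and 43.9% for replicate 2 only.

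Set against the open sequence of the arms, members were denser near replicated domains than far from them. Open sequence was defined as bases outside every replicate region and outside every combined region with a base in a replicate list, 52.1 Mb in all, of which members held 5.73%. Assembly gaps and sequence to which reads map poorly were not removed from this or any other count of sequence. Within 5 kb of a domain lay 34.1% of member bases and 25.6% of open bases. Beyond 20 kb the values were 24.4% and 37.6%. Members held 7.65% of open bases within 5 kb, 6.45% of those from 5 to 20 kb and 3.73% of those beyond. This order held on 2L (7.78%, 7.27% and 3.89%), on 3L (7.96%, 6.10% and 3.39%) and on 3R (7.28%, 6.11% and 3.89%).

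The profile had its highest values at 1 to 5 kb and not at the domain edge. Members held 8.83% of open bases from 1 to 2 kb and 9.00% of those from 2 to 5 kb, then 7.17%, 5.85%, 4.30% and 2.74% in the successive bands out to more than 50 kb. Next to the edge the share was 1.77% for the first 500 bases and 4.71% for the next 500. In those first 500 bases, 43.8% of the sequence outside the replicate lists belonged to combined regions that also had a base in both lists, that is, to regions that run past the edge of the replicated domain. That share was 18.9% in the next 500 bases and 2.35% from 2 to 5 kb. A member must also fit whole into the room that is left, so the low values at the edge are partly set by the rule. The rise and fall was not particular to members. Of the sequence outside the replicate lists, other regions without a replicate base held 0.852% in the first 500 bases. They held 4.54% at 1 to 2 kb and 1.91% beyond 50 kb. Combined regions with a base in a single list held 1.17% in the first 500 bases, 4.46% at 2 to 5 kb and 0.838% beyond 50 kb.

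**Figure D3:**
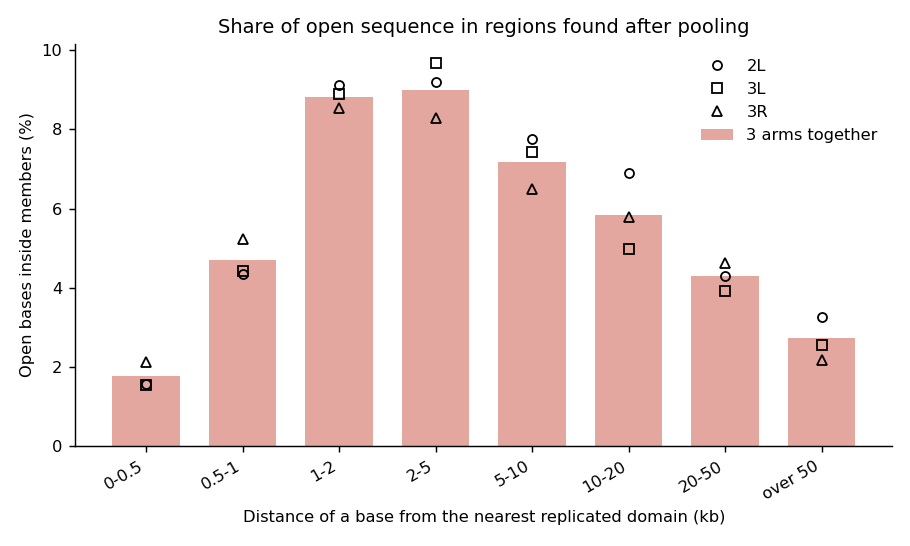
The share of open bases (%) that lie inside members, by distance of the base from the nearest replicated domain (kb); bars are the 3 arms together and symbols the single arms. The bars rise from 1.77% at the edge to 9.00% at 2 to 5 kb and fall to 2.74% beyond 50 kb; the highest band is 2 to 5 kb on 2L and 3L and 1 to 2 kb on 3R (8.56%, then 8.29%).

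Most flank members were the immediate neighbour of the combined region over the domain. This was so for 514 of 636 (80.8%), with a median gap of 902 bp between the 2 combined regions and an interquartile range of 322 to 1875 bp. The gap was 100 bp or less in 43 cases. Flank members scored below the combined region over their domain in 586 of 636 pairs (92.1%), with medians of 0.38 and 0.54 and a median difference of -0.16 on the log2 scale. The replicate calls chose both sides of each pair and widths were not matched, so the direction is partly set by the rule. Among all regions of 1.5 to 2 kb, the medians were 0.39 for members and 0.38 for regions in both lists. They were 0.41 and 0.50 at 2 to 3 kb and 0.40 and 0.55 at 3 to 5 kb. A domain had a member in a flank in 662 of 3059 cases (21.6%) and members in both flanks in 55 (1.80%). Domains narrower than 3 kb had one in 23.3% of cases, those of 3 to 5 kb in 22.6%, those of 5 to 10 kb in 18.5% and those of at least 10 kb in 18.0%.

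Some members lay between neighbouring domains. A domain lay within 5 kb on both sides of 124 members (7.55%, 6.37 to 8.93), from 4.65% on 2L to 9.83% on 3L. The same was so for 13.5% of the regions of this width range in both lists, 9.44% of those in replicate 1 only and 7.84% of those in replicate 2 only. With 1 replicate left out, the set itself was larger and the regions of the other replicate served as domains. The value was then 17.6% of 2480 regions without replicate 1 and 13.3% of 2867 regions without replicate 2. The tightest such place was on 3R, where a member of 1699 bp from 12031116 to 12032814 had a domain of 3.57 kb 162 bp to its left and one of 2.01 kb 68 bp to its right. That member had a score of 0.23, near the lowest of the combined list on these arms (percentile 0.584), while the combined regions on its sides had 0.58 and 0.45. On 3L a member of 1729 bp from 22441114 to 22442842 stood 486 bp from a domain of 6.67 kb and 34 bp from one of 9.54 kb, with a score of 0.41. The next was on 3R from 6991794 to 6993392, 163 and 419 bp from its neighbours, with a score of 0.38. The median score of all 124 was 0.39, as in the members at large.

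The closest flank members all but touched a domain. One on 2L from 8659630 to 8661976 ended 2 bp before a domain of 4.04 kb, while the next domain on its other side was 133 kb away. Another on 2L, 3705 bp from 5215458 to 5219162, ended 6 bp before a domain of 12.9 kb. A member on 3R from 1601168 to 1602862 began 7 bp after a domain of 2.18 kb. Their scores were 0.38, 0.43 and 0.38. These cases also show how fine the rule is at its limit. The nearest region on the other side of it, 1951 bp on 2L from 18826630 to 18828580, shared 1 base with replicate 2, and 17 regions of this width range shared 100 bp or less with the lists. At the narrow end, 169 regions without a replicate base missed the limit by at most 50 bp, and 147 members lay within 50 bp on its inner side. At the wide end the widest member measured 4975 bp and the region just outside 5417 bp.

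Far from replicated domains, members lay nearer to regions that a single replicate had listed than the sequence there did. Of the 373 isolated members, 184 (49.3%) lay within 5 kb of some replicate region, and of the 19.9 Mb of bases outside the replicate lists that were more than 20 kb from a domain, 18.5% did. By arm the values were 48.2% and 18.5% on 2L, 36.6% and 16.4% on 3L, and 62.5% and 20.5% on 3R. A member's distance is taken from its nearer edge, which raises its share somewhat against that of single bases. Over all members, 1171 (71.3%) were within 5 kb of a region of either list and 60 (3.65%) were more than 20 kb from any, with a median distance of 2460 bp. Of all bases outside the replicate lists, 47.5% lay within 5 kb of a replicate region. The nearest stretch of any kind was a replicated domain for 38.7% of members, a stretch of replicate 1 only for 25.4% and of replicate 2 only for 35.9%. Domains were 51.4% of the stretches on the arms, replicate 1 only stretches 20.4% and replicate 2 only stretches 28.3%. The count of members nearest to a domain, 636, happens to equal that of flank members, but 462 members belong to both groups.

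The members farthest from a replicated domain stood where, by the definition of a domain, no replicate 1 region overlapped a replicate 2 region. On 2L, a member of 1461 bp from 14812464 to 14813924 was 152 kb from a domain on its left and 160 kb from one on its right, with a score of 0.38. A second one nearby, 1843 bp from 14808630 to 14810472, was 148 kb away and had a score of 0.46. The first was 2.58 kb from a region of replicate 2. Between the domains on its sides, over 314 kb, replicate 1 listed 7 regions, the nearest 58.6 kb from the member, and replicate 2 listed 10. The combined list had 40 regions there, of which 12 were members. On 3L, members from 13708654 to 13710076 and from 13714108 to 13715520 were 144 and 138 kb from a domain and 15.4 and 20.9 kb from any replicate region, with scores of 0.55 and 0.34. On 3R, a member from 23944286 to 23945916 was 134 kb from a domain, 2.61 kb from a single-replicate region and 11 bp from another combined region. Isolated members had a median width of 1645 bp and a median score of 0.40, against 1677 bp and 0.38 for flank members. Spearman's rho with distance over the 1643 members was 0.10 for score and -0.02 for width, values too weak to order the members.

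**Figure D4:**
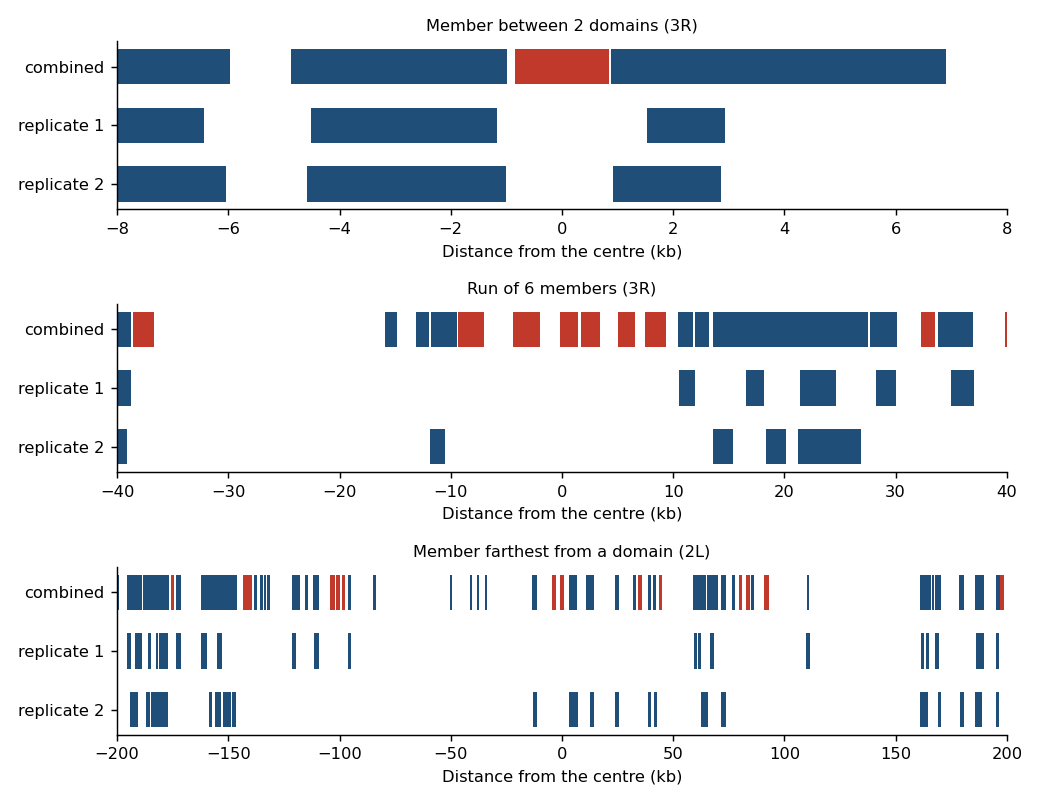
Regions of the combined list (members in red, other regions in blue) and of both replicate lists around a member between 2 domains on 3R, a run of 6 members on 3R and the member farthest from a domain on 2L, by distance from the centre (kb). In the top map the member lies in the gap between stretches listed by both replicates; in the middle map the 6 central members lie where neither replicate listed a region; in the bottom map the replicate regions nearest to the centre are all from replicate 2, and the nearest replicate 1 region is 58.6 kb from the member.

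Of the 5 widest members, 4 lay on 2L. The widest of all, 4975 bp on 3R from 18678158 to 18683132, had a score of 0.48 and lay 20.0 kb from a domain but 707 bp from a region of 1 replicate. The next were all on 2L. The regions from 18166636 to 18171202 (4567 bp) and from 16994916 to 16999432 (4517 bp) were 8.72 and 6.63 kb from a domain, with scores of 0.40 and 0.34. The region from 15512722 to 15517226 (4505 bp, score 0.46) was 706 bp from a domain, and the region from 18344604 to 18349078 (4475 bp, score 0.39) was 25.2 kb from one. Of these 5 wide members, 1 was a flank member, 2 were intermediate and 2 were isolated.

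The highest-scoring members were narrower. The top one, on 3L from 23126852 to 23128768 (1917 bp), had a score of 0.81, or percentile 97.7 of the combined regions of the arms, and stood 1048 bp from a domain in the part of the arm next to the centromere. It was followed on 3L by 1369 bp from 11564524 to 11565892 (0.70), on 2L by 2817 bp from 13661504 to 13664320 (0.68) and on 3L by 1847 bp from 19763608 to 19765454 (0.64), which were 6.45, 14.9 and 8.04 kb from a domain. The fifth, on 3R from 23928700 to 23930050 (1351 bp, 0.59, percentile 86.0), was isolated, at 118 kb.

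In the combined list most members had another region within 1 kb, though fewer did than among listed regions of the same width range. Another combined region lay within 1 kb of 892 members (54.3%) and within 5 kb of 1501 (91.4%), at a median gap of 855 bp. The share within 1 kb was 58.3% for regions in both lists, 62.2% for replicate 1 only and 57.0% for replicate 2 only. Their median gaps were 769, 669 and 783 bp. The combined region nearest to a member was itself without a replicate base for 736 members (44.8%), in both lists for 431 (26.2%), in replicate 1 only for 197 (12.0%) and in replicate 2 only for 279 (17.0%). The same classes made up 37.8%, 34.3%, 11.4% and 16.5% of the combined regions of the arms. For isolated members the nearest combined region was another member in 38.6% of cases, and for flank members in 12.4%. Members were 20.0% of the combined regions of the arms. A flank member has a domain within 5 kb and an isolated member none within 20 kb, so the classes partly set this difference. When combined regions separated by 100 bp or less were joined, 57 members (3.47%) became part of a stretch with a base in both replicate lists and 51 (3.10%) of one with a base in a single list. With gaps of up to 1 kb these values rose to 421 (25.6%) and 210 (12.8%), which left 1012 (61.6%) without a replicate base. With gaps of up to 5 kb, 289 members (17.6%) remained without one, 142 of them alone.

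Members also occurred in short runs. With gaps of 5 kb or less between successive members, 965 of 1643 (58.7%) stood alone, 484 (29.5%) in pairs, 129 (7.85%) in runs of 3 and 65 (3.96%) in runs of 4 or more, of which there were 14. The run with the most members was on 3R from 22109440 to 22128118, where 6 members made up 62.0% of 18679 bp, with no replicate base inside the span, scores of 0.27 to 0.45 and distances of 11857 to 28195 bp from a domain. A run of 5 members on 3R from 9958104 to 9977258 covered 61.3% of its span, which also held 2041 bp of replicate regions but no domain. The run of 5 on 2L from 18331822 to 18349078 covered 71.5% of 17257 bp, without a replicate base, and ended with one of the 5 widest members.

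Along the arms, each divided into 10 equal bins, members were spread over every bin and were sparsest next to the centromere. Counted per Mb outside the replicate lists, the centromeric bin held 9.25 members on 2L, 15.6 on 3L and 18.0 on 3R, the lowest value of each arm, against 24.6 to 44.0, 25.4 to 41.7 and 25.5 to 37.0 in the other bins. The flank share varied widely between bins. On 3L it was 77.8% in the second bin from the telomere, where 35 of 45 members were flank members and 1 was isolated, and 26.4% in the fifth, where 14 of 53 were. On 3R the second bin had 13 flank and 25 isolated members of 60. On 2L the sixth bin had 15 and 28 of 72, and the eighth held the most members of any bin, 81.

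**Figure D5:**
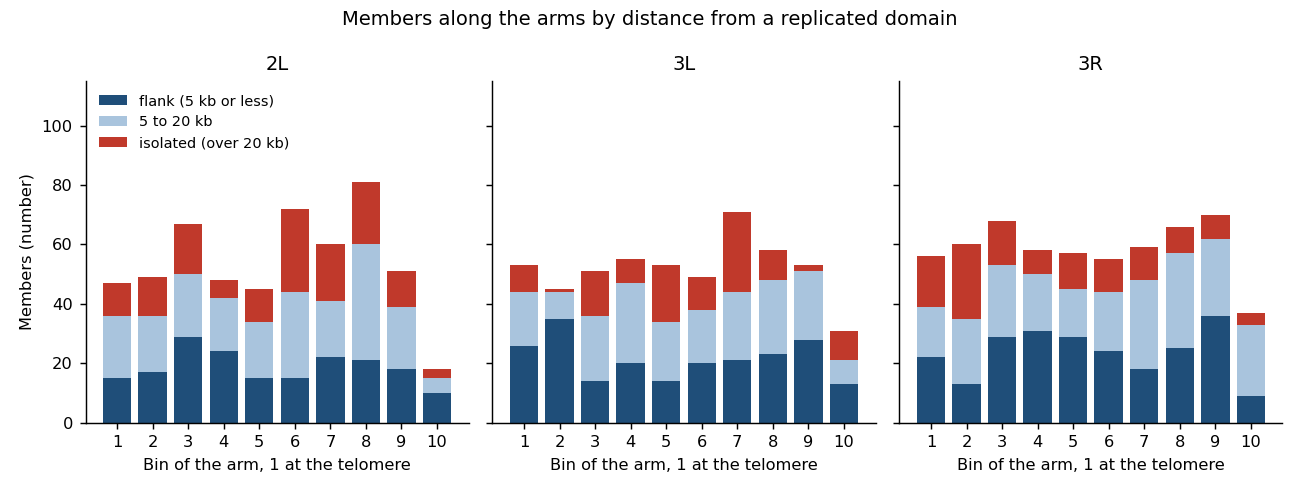
The number of members in each of 10 equal bins of 2L, 3L and 3R, counted from the telomere and split by distance from the nearest replicated domain. The bin next to the centromere has the fewest members on each arm (18, 31 and 37), and the isolated part ranges from 1 member in the second bin of 3L to 28 in the sixth bin of 2L.

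In windows of 100 kb, members per Mb of sequence outside the replicate lists were fewest where there was no replicated domain. Spearman's rho between the share of a window covered by domains and its plain number of members was -0.07 over 754 windows, which draw on the same libraries and in which domain cover leaves less room for members. The median window held 2 members, and 153 windows (20.3%) held none. For that room, there were 16.4 members per Mb in the 78 windows without a domain, 29.3 per Mb in windows covered up to 10%, 32.4 from 10% to 30% and 33.2 above 30%. The fullest windows were on 2L, with 14 members from 17000001 to 17100000 and 12 from 18300001 to 18400000. A window on 3R from 15900001 to 16000000 held 9 members with no replicated domain at all and 7.39% of its length in regions of a single replicate.

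Long stretches that neither replicate had marked held few members. The arms had 44 stretches of at least 100 kb without a replicate region, 7.59 Mb in all or 13.6% of the sequence outside the replicate lists, and 23 of them held 48 members (2.92% of members). That is 6.33 members per Mb, against 29.5 over all sequence outside the replicate lists. The most in one stretch was 4, reached on 3L from 5339072 to 5551530 and from 10216043 to 10373670 and on 2L from 18191170 to 18307313. The first of these held the member farthest from any replicate region, at 99482 bp.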

How the data were processed

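The data are lists of H3K79me1 regions from 2 ChIP replicates, 1 list each, and 1 list for both combined, 3 lists in all. The submitters' processing notes name Bowtie 0.12.7, and per the file headers the genome build is FlyBase release 5. For the caller, its threshold and how the replicates were combined, nothing is given in the sources used here. The score deposited with each region has no stated unit and is treated as log2: relative to the most frequent score, 96.9% to 99.9% of scores gave a ratio of whole numbers (denominator up to 5000, relative tolerance 1e-11) on that scale, against 0.518% to 1.18% on the natural log and log10 scales. All starts and ends of the combined list are even numbers, and about 50% of those in the replicate lists. Library depth is unknown. The 1 region that the combined list names as depleted was left out.

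Header lines joined to one another were split, and coordinates were read as 1-based. Overlap, merging and distances were computed with pandas 2.3.3, numpy 2.4.6 and scipy 1.17.1 under Python 3.11.15, and tested on simulated lists with planted distances. Plots came from matplotlib 3.10.9. To be found in a list, a region had to share at least 1 bp with it. Named regions were the 5 widest, the 5 highest-scoring and the 5 farthest from a domain, the 3 closest to a domain, the 3 with the smallest summed gap between 2 domains, the 3 runs with the most members and those at the limits of the rule; the windows, arm bins and stretches named in addition were chosen after their values were seen. The members and settings were chosen with earlier results of these data known, and no test was run.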

Additional observations from a re-analysis of the deposited data

How the results depend on the processing

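The number of members, 1643, was 1983 when a region had to lie at least 50% inside a list to count as found and 1557 outside the centromeric bins, a setting added after seeing the data. It was 302 among the higher-scoring 50% of combined regions, 3101 with no lower limit on width and 350 with one of 2000 bp, each by construction, and 2480 to 2867 with 1 replicate left out. The flank share of 38.7% stayed between 36.9% and 40.9% under the overlap, score, width and position settings. It was 42.2% with combined regions in both lists as domains, 35.8% with stretches inside both lists, 10.6% with domains of at least 5000 bp, 71.3% with any replicate region, 11.6% with a limit of 1000 bp, 57.9% with 10000 bp and 55.2% to 61.9% with 1 replicate left out. The isolated share of 22.7% was 25.0% with no lower limit on width, 20.0% with combined regions as domains, 65.1% with domains of at least 5000 bp, 3.65% with any replicate region, 42.1% with a limit of 10000 bp, 6.45% with 50000 bp and 6.45% to 10.3% with 1 replicate left out. The share with a domain within the limit on both sides, 7.55%, was 0.852% with domains of at least 5000 bp, 25.2% with any replicate region, 0.609% with a limit of 1000 bp and 16.7% with 10000 bp. The median distance of 7512 bp was 2460 bp with any replicate region. With 1 replicate left out, the set of members was larger and every region of the other list served as a domain. The values of those settings are therefore not directly comparable. How many members count as flank or isolated therefore depends on the definition of a domain and on the limits. No paired analysis was possible because no test was run and the input libraries could enter only through the authors' calls. Unknown depth limits any comparison of scores between lists.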

Other observations

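The combined list also held 1458 regions on 2L, 3L and 3R that were no wider than 1.3 kb and had no base in a replicate list. Their median width was 1107 bp and their total length 1.63 Mb. They scored higher than the wider regions without a replicate base, with a median of 0.42 against 0.39, and lay somewhat farther from replicated domains. Their flank share was 34.9% (32.5 to 37.4) and their isolated share 27.6% (25.3 to 29.9), against 38.7% and 22.7% for the wider regions, and their median distance was 8868 bp. Another combined region lay within 1 kb of 44.4% of them, against 54.3%. No region of either replicate list was this narrow.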
